A study of Mus musculus with 23 samples.

Results

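The comparison described here set 7 libraries of mouse lung epithelial cultures exposed to non-typeable Haemophilus influenzae (NTHi) against 7 libraries of untreated cultures, all taken at day 4 of culture. These 14 libraries, of 23 in the series, were every day 4 library that the labels name, and came from 3 experiments, A and B with 2 libraries of each group and C with 3. Both groups were cells from lungs of C57BL/6 wild type mice, selected for the surface protein EpCAM and cultured on transwell inserts with the apical side of the layer facing air (an air-liquid interface). The labels give the treated group as NTHi treated and the other as untreated control, and do not give a dose, the number of exposures, or whether the bacteria were alive. They do not say either that replicates were separate mice or cultures, so p-values measure the spread between these libraries, which may be technical.

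NTHi is a bacterium without a capsule that colonises human airways and is known for its part in chronic bronchitis and in exacerbations of chronic obstructive pulmonary disease. Epithelial cells sense its lipooligosaccharide and lipoproteins through Toll-like receptors, which signal to the transcription factor NF-kB. An epithelium under such a stimulus is also known to alter its metabolism, its ion and fluid transport, its junctions and its contact with the matrix, and these programmes take up most of what follows.

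RNA was sequenced in bulk, and each library held between 37525010 and 39081663 counts. Levels are normalised counts in CPM, in which counts are divided by the library total times a TMM scaling factor. Such CPM do not sum to the same value in each library. Levels are given as the lowest, the median and the highest of the 7 libraries of a group. Changes are log2 fold changes with their standard error. A gene is called changed at a Benjamini-Hochberg adjusted p below 0.05 in edgeR's quasi-likelihood test with experiment as a term. The cell type on the labels is airway epithelial cells. The markers give a broader picture: Epcam was at 365 to 474 CPM in control cultures, the club cell product Scgb1a1 at 2600.3 to 3936, the multiciliated regulator Foxj1 at 94.4 to 236, the alveolar type 2 (AT2) product Sftpc at 1933 to 2638 and the alveolar type 1 (AT1) marker Ager at 853 to 1127. The leukocyte marker Ptprc was at 46.5 to 93.5 CPM, so transcripts of leukocytes were in the libraries too. In a principal component analysis the first component (52.2% of the variance) separated the groups without overlap. The second (14.7%) set apart 1 control library and 1 NTHi library of experiment C, control replicate 1 and NTHi replicate 3. Some results are also given without these 2 libraries, but not every count that moved without them. For example, falls among nuclear respiratory chain subunits then numbered 14 rather than 10. Rises among MHC class II genes numbered 3 rather than 1.

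NTHi cultures differed from controls in a large share of the transcriptome, mostly by small amounts. Of 16337 genes tested, 6619 (40.5%) were called, 3281 higher (20.1%) and 3338 lower (20.4%) with NTHi. The counts of list members given further on are to be read against these shares. With libraries scaled by their totals alone, 34.1% of called genes were higher, against 49.6% with the TMM scaling used here, so the balance of rises and falls depends on the scaling. Of the called genes, 3817 (57.7%) moved by less than 0.5 on the log2 scale and 296 by 2 or more, 151 of them higher and 145 lower. A test against a minimum change of 2-fold called 542 genes (3.32% of those tested), 269 higher (1.65%) and 273 lower (1.67%). The 7 NTHi values lay wholly above or wholly below the 7 control values in 2580 genes (15.8% of those tested), 1341 of them higher and 1239 lower.

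**Figure D1:**
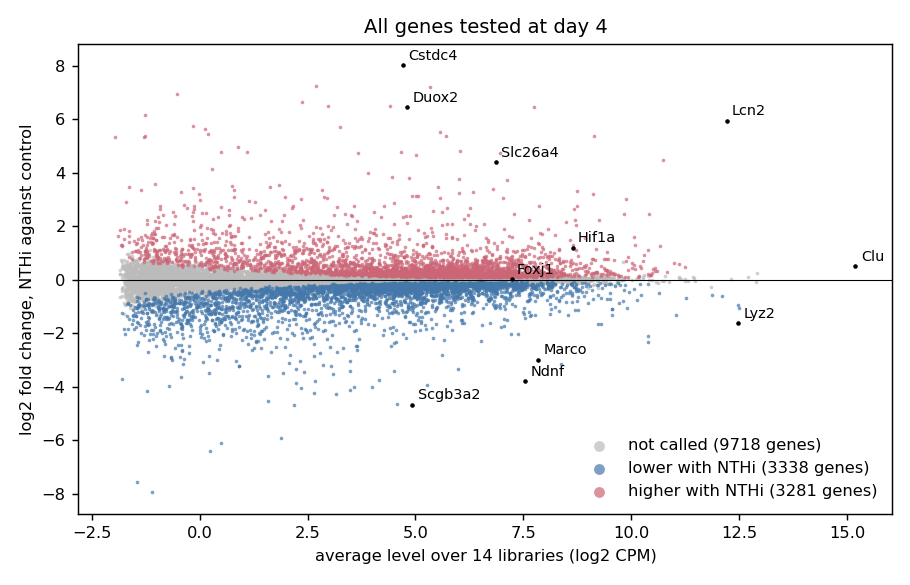
Each point is 1 of the 16337 genes tested, with its average level over the 14 libraries in log2 CPM on the x axis and its log2 fold change, NTHi against control, on the y axis. The 3281 genes called higher lie above 0 and the 3338 called lower lie below it, and most called genes sit close to the line at 0.

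The most strongly raised genes, among called genes with at least 10 CPM in 1 group and the same sign in each experiment, encoded protease inhibitors of the cystatin family, an oxidase system, a decoy receptor and secreted defence proteins. Cstdc4, a cystatin domain gene, went from 0.101, 0.151 and 0.566 CPM in control to 16.5, 51 and 73.4 CPM with NTHi, a log2 change of 8.01 ± 0.39. Csta2, also called stefin A2, went from 0.366, 0.475 and 1.03 CPM in control to 24.8, 82.7 and 105 CPM with NTHi, a change of 7.20 ± 0.34. The groups stood far apart in both, but stefin genes have near-identical copies, and the counting could divide their reads in ways that are not known, so the value of each copy is uncertain.

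Duox2, the oxidase that releases hydrogen peroxide at the apical surface, went from 0.226, 0.580 and 1.10 CPM in control to 47.1, 54.9 and 62.7 CPM with NTHi, a log2 change of 6.45 ± 0.16. Duoxa2, the maturation factor that Duox2 needs to reach the cell surface, went from 0.0528, 0.103 and 0.357 CPM in control to 12, 14.2 and 20.5 CPM with NTHi, a change of 6.51 ± 0.21. No NTHi library came near a control library in either. Noxo1, an organiser subunit of the related oxidase Nox1, went from 5.02, 6.47 and 7.26 CPM in control to 48.1, 53.3 and 63.9 CPM with NTHi, a change of 3.14 ± 0.09, again with no overlap.

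Il13ra2, a decoy receptor that binds interleukin 13, went from 0.205, 0.487 and 0.772 CPM in control to 34.9, 43.6 and 50.6 CPM with NTHi, a log2 change of 6.48 ± 0.16. Cbln1, a secreted protein best known as an organiser of synapses in the cerebellum, went from 0.201, 0.244 and 0.618 CPM in control to 6.65, 19.2 and 29.4 CPM with NTHi, a change of 5.70 ± 0.36. Vnn3, a vanin of the pantetheinase family, went from 1.88, 2.51 and 3.17 CPM in control to 70.5, 109.7 and 122 CPM with NTHi, a change of 5.37 ± 0.13. In these 3 genes every NTHi library was above every control library, and the control levels were low. The others among the 12 highest were Sprr2d, Saa3, Lcn2, Ccl20 and Cxcl5, with changes of 7.22, 6.47, 5.94, 5.53 and 5.37. Sprr2d had at most 0.206 CPM in a control library, so its fold change rests on few control counts, and it too belongs to a family of near-identical copies.

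The most strongly lowered genes by the same rule mixed epithelial products with transcripts of leukocytes. Scgb3a2, a secretoglobin of the distal airway, went from 18.8, 51.2 and 104 CPM in control to 1.15, 2.13 and 2.75 CPM with NTHi, a log2 change of -4.67 ± 0.19. Ndnf, a secreted neuron-derived factor, went from 279, 357 and 424 CPM in control to 21.1, 24.4 and 30.8 CPM with NTHi, a change of -3.79 ± 0.04. Its change was -3.84, -3.80 and -3.75 in experiments A, B and C. Control libraries were well above NTHi libraries in both genes.

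Cxcr1, a receptor for neutrophil-attracting chemokines, went from 30.03, 39.4 and 72.4 CPM in control to 0.514, 1.26 and 4.51 CPM with NTHi, a log2 change of -4.65 ± 0.34. Kynu, the kynureninase of tryptophan breakdown, went from 12.2, 23.2 and 28.8 CPM in control to 0.875, 1.41 and 2.0 CPM with NTHi, a change of -4.02 ± 0.21. Rufy4, a regulator of autophagy in phagocytes, went from 6.80, 12.2 and 16.7 CPM in control to 0.366, 0.629 and 0.790 CPM with NTHi, a change of -4.26 ± 0.22. None of these 3 overlapped between groups. Other genes among the lowest were Pld4 (-4.28), Krt79 (-4.11), Siglecf (-4.02), Ear2 (-3.93), Ces1g (-3.78) and Sh3rf3 (-3.54). Siglecf and Ear2 are known as markers of eosinophils and alveolar macrophages, so several of these falls go with the macrophage markers described next.

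Markers of macrophages moved with the treatment, and in both directions. Of 20 macrophage and monocyte markers tested, 14 fell, 3 rose and 3 were not called, with a median log2 change of -1.82, where 20.4% of all genes tested fell and 20.1% rose. Marco, a scavenger receptor of alveolar macrophages, went from 218, 417 and 503 CPM in control to 15, 52.4 and 78.9 CPM with NTHi, a change of -2.99 ± 0.27, and the groups did not overlap. Siglecf fell by 4.02, the complement components C1qa and C1qb fell by 3.87 and 3.34, and the pan-leukocyte marker Ptprc fell by 1.02. Itgam, the integrin chain CD11b, went from 82.5, 112 and 157 CPM in control to 95.5, 266 and 346 CPM with NTHi, a change of 1.11 ± 0.23, and Adgre1, the F4/80 antigen, went from 28.5, 42.2 and 53.7 CPM in control to 35.7, 95.2 and 130.4 CPM with NTHi, a change of 1.19 ± 0.23. In both genes 1 NTHi library lay within the control range and the other 6 lay above every control library, and the marker Cd68 was not called (log2 difference -0.59 ± 0.24, adjusted p = 0.066), although it was called without NTHi replicate 1 of experiment A (-0.71) or the control library that stood apart (-0.70), among others.

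The summed level of the 20 macrophage markers ran from 2439 to 4877 CPM in control libraries, with a median of 4403, and from 546 to 2118 CPM with NTHi, with a median of 1653. Its lowest value in each group was in the 2 libraries of experiment C that stood apart, 2439 CPM in the control one and 546 CPM in the NTHi one. The defining markers were above 0 in each group. In bulk RNA, fewer macrophages and less of these transcripts per macrophage cannot be told apart. Without the 2 libraries, 6816 genes were called (3349 higher and 3467 lower), and the macrophage counts were 15 lower and 3 higher. The part of the macrophage transcripts in the other results was not tested.

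**Figure D2:**
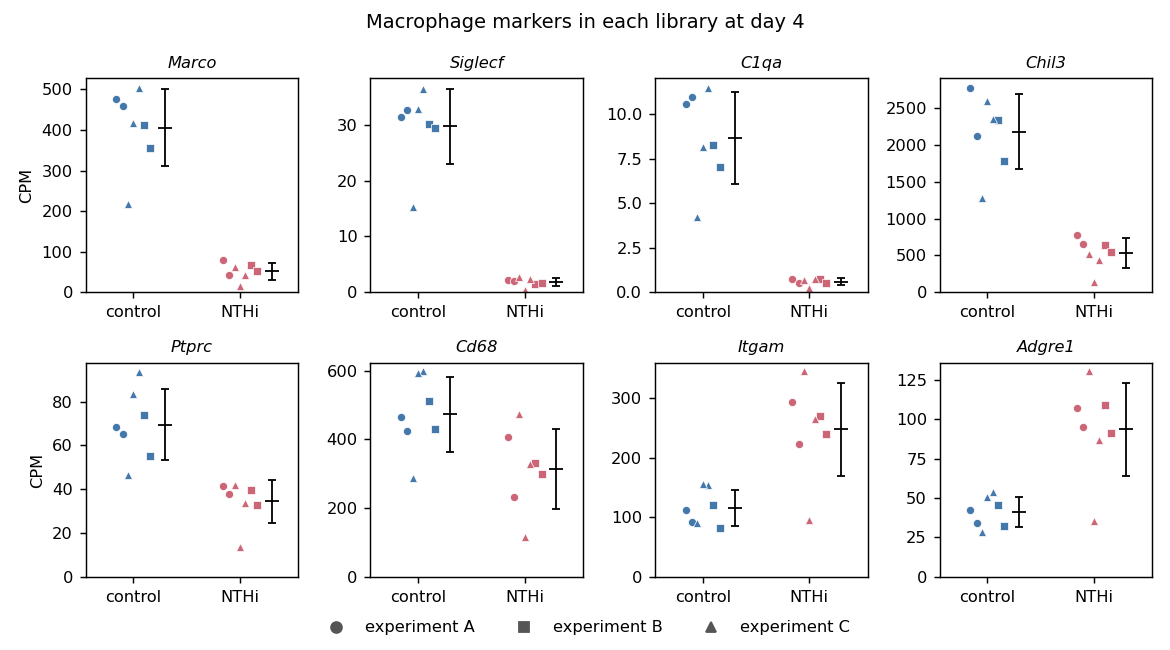
Normalised counts in CPM (y axis, from 0) of 8 macrophage and leukocyte markers in the 7 control and 7 NTHi libraries, with the experiment shown by the symbol, and the group mean and SD to the right of the points. Marco, Siglecf, C1qa and Chil3 are lower with NTHi and their groups do not overlap, Itgam and Adgre1 are higher in most NTHi libraries, and 1 triangle in each group, from experiment C, is the lowest or close to the lowest in most panels.

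Other cell types left fewer transcripts. Of 8 neutrophil genes tested, 3 rose and 2 fell, and the granule genes Mpo, Elane and the surface marker Ly6g did not pass the filter on low counts. The rise of S100a8 (2.40) reached only 20.1 CPM. Mmp8, a collagenase known from neutrophil granules, rose by 3.25 to a median of 118 CPM. The 2 that fell were the chemokine receptors Cxcr1, with the values above, and Cxcr2, which had 0.452 to 1.58 CPM in control libraries and 0 counts in every NTHi library. None of 10 lymphocyte markers rose and 6 fell, among them the joining chain of immunoglobulins, Jchain (-1.89), and the B cell marker Cd79a (-0.89). Of 11 endothelial markers 1 rose and 4 fell, a share of 45.5% called against 40.5% over all genes. Kdr (-0.96, also in the club cell list), Egfl7 (-0.68) and Vwf were among the falls, and Cdh5 rose (0.91, not called without experiment A or B). Vwf had at most 1087 counts in a control library and 250 in an NTHi library. The lowest log2 change in the endothelial list was -1.91. Pecam1 was at a log2 difference of 0.00 ± 0.18 (adjusted p = 0.99). Of 14 markers of fibroblasts, smooth muscle and mesothelium 2 rose and 6 fell (3 without control replicate 2 of experiment A). Dcn rose (1.2) and Col3a1 fell (-0.50), while Col1a1 was at 0.09 ± 0.17 (adjusted p = 0.72). Of 3 erythrocyte and platelet genes tested 1 rose and 1 fell. The platelet chemokine gene Ppbp rose by 1.84, and Pf4, another platelet chemokine gene, fell by 0.60, a call that was lost in 12 of 26 alternatives.

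The NF-kB consensus, the sequence that the factor's dimers bind, was searched in the upstream regions of the changed genes. These were the 250 bases before the first listed start of each gene in RefSeq (build GRCm38.p6), read on both strands. The consensus was in 20 of 195 matched promoters of the genes raised over 2-fold (10.3%), in 8 of 193 of those lowered over 2-fold (4.15%), in 555 of 12233 of the genes tested (4.54%) and in 1014 of all 27025 promoters in the table (3.75%). A C/EBP motif, TTGCNNAA on either strand, was in 33 of the 195 (16.9%), 25 of the 193 (13%), 944 of the genes tested (7.72%) and 2582 of all (9.55%). The STAT motif TTCCNGGAA was in 4 of the 195 (2.05%), 0 of the 193, 117 of the genes tested (0.956%) and 247 of all (0.914%). These shares were not tested and a match is not a measured binding site.

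The 5 sequences that follow belong to strongly raised genes with a match and were chosen after the matches were seen. Capitals mark the NF-kB consensus in Ccl20, Cxcl1 and Cxcl2 and the C/EBP motif in Lcn2 and Saa3. In Cxcl1 and Cxcl2 the capitals cover 2 overlapping matches, 1 on each strand. Ccl20 lies at chr1:83116516-83116765 (plus strand), Cxcl1 at chr5:90890995-90891244 (plus strand), Cxcl2 at chr5:90903649-90903898 (plus strand), Lcn2 at chr2:32387740-32387989 (minus strand) and Saa3 at chr7:46715677-46715926 (minus strand) of GRCm38.p6, and the first capital is 80, 71, 97, 216 and 99 bases before the start, in that order. The first 3 encode chemokines, for cells that carry Ccr6 and for neutrophils, Lcn2 encodes a protein that captures bacterial siderophores, and Saa3 a serum amyloid A protein.
Ccl20: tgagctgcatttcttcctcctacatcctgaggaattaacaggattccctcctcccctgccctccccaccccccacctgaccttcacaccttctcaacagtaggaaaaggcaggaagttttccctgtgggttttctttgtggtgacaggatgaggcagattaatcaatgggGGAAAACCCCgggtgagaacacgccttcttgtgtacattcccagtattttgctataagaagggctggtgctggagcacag
Cxcl1: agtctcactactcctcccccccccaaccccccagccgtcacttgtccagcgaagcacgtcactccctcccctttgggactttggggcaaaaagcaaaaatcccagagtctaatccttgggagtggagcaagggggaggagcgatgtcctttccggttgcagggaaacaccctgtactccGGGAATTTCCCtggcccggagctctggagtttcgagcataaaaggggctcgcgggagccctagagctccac
Cxcl2: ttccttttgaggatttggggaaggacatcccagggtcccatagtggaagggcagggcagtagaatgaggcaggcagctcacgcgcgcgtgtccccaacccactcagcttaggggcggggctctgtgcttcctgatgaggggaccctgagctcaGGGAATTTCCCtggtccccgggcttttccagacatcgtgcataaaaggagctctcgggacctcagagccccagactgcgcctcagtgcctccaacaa
Lcn2: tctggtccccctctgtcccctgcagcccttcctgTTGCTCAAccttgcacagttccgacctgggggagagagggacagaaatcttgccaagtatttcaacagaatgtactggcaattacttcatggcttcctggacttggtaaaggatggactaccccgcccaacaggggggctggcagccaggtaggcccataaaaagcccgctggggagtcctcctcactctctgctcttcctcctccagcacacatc
Saa3: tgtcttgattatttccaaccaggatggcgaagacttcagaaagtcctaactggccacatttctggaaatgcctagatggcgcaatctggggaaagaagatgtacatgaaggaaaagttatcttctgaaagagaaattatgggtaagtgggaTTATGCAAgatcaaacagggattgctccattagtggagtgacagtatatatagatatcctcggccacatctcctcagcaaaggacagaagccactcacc
Cxcl1 rose by 4.82, Cxcl2 by 3.73 and Cxcl5, whose promoter was not in the table, by 5.37. Of the 12 highest genes 10 were matched, and Ccl20 alone among them held the NF-kB consensus in this window, while Lcn2, Saa3 and Vnn3 held the C/EBP motif. Of the 12 lowest genes 8 were matched, with the NF-kB consensus in 1, Krt79, and the C/EBP motif in 1, Ear2.

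Counted in CPM rather than in folds, a few genes made up much of the change. Called genes that rose gained 112780 CPM in sum and called genes that were lower fell by 74729 CPM in sum, and the 12 largest gains and 12 largest losses made up 32% and 33.6% of these. TMM factors were 0.952 to 1.008 in NTHi and 1.003 to 1.058 in control libraries, so summed CPM are larger in most NTHi libraries. The excess of gains over losses is therefore no measure of a net gain in transcripts. Clu, which encodes the secreted chaperone clusterin, went from 26755, 32137 and 34590.0 CPM in control to 39560.0, 44173 and 47356 CPM with NTHi, a log2 change of only 0.51 ± 0.07 but a gain of 12951 CPM on the means, and its groups did not overlap. Trf, the iron carrier transferrin, went from 801, 925 and 1179 CPM in control to 1825, 2251 and 2763 CPM with NTHi, a change of 1.26 ± 0.10 without overlap. The other large gains were in Lcn2, Chi3l1, C3, Cd14, Cp, Cxcl5, Ltf, Cxcl3, Sftpd and Ctsc.

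Of the 12 largest losses, Lyz2, Ccl6, Chil3 and Spp1 are abundant in macrophages. Lyz2, lysozyme 2, went from 5173, 8677 and 11153 CPM in control to 1074, 3082 and 3767 CPM with NTHi, a log2 change of -1.62 ± 0.23. Scd1, the desaturase that makes monounsaturated fatty acids, went from 6854, 7716 and 9153 CPM in control to 3255, 3896 and 4212 CPM with NTHi, a change of -1.05 ± 0.07. Neither overlapped between groups. The lysosomal protease Ctsd went from 4819, 8227 and 8901 CPM in control to 2316, 3888 and 5203 CPM with NTHi, a change of -0.94 ± 0.17, with overlapping groups. Emp2, Ager, Sftpc and Scgb1a1, with changes of -1.31, -1.64, -2.33 and -0.70, were the epithelial differentiation products among the losses, and Psap and Ftl1 completed them.

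Among the metabolic lists, genes of glycolysis and the hypoxia response rose almost throughout, while genes of the citrate cycle and of fatty acid oxidation fell or were not called. Of 25 glycolysis and hypoxia genes 22 rose and 2 fell, with a median log2 change of 0.63, against 0 over all genes. Hif1a, the oxygen-regulated transcription factor, went from 206, 231 and 305 CPM in control to 443, 579.8 and 622 CPM with NTHi, a change of 1.19 ± 0.09. Pfkfb3, which makes the allosteric activator of phosphofructokinase, went from 141, 151 and 167 CPM in control to 321, 338 and 360.4 CPM with NTHi, a change of 1.15 ± 0.04. Both were higher in every NTHi library. Along the pathway, the glucose transporter Slc2a1 rose by 0.83, hexokinase Hk2 by 1.04, phosphofructokinase Pfkl by 0.78, Gapdh by 0.43 and pyruvate kinase Pkm by 0.63. The prolyl hydroxylase Egln3, a target of Hif1a, rose by 0.99, and the transporter Slc2a3 fell by 0.68.

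Of 25 genes of the citrate cycle and fatty acid oxidation, 16 fell and 0 rose, with a median of -0.19. Acaa2, the thiolase of mitochondrial beta-oxidation, went from 75, 91.4 and 104 CPM in control to 31.6, 40.01 and 43 CPM with NTHi, a log2 change of -1.24 ± 0.06. Cpt1a, the carnitine transferase that admits fatty acids to mitochondria, went from 98, 102 and 110.5 CPM in control to 54.7, 60.7 and 66.9 CPM with NTHi, a change of -0.75 ± 0.05. Controls were above NTHi cultures in every library of both genes. Pyruvate carboxylase Pcx fell by 0.80 and the oxoglutarate dehydrogenase Ogdh by 0.50, while citrate synthase Cs was not called (-0.02 ± 0.04, adjusted p = 0.66).

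Changes in the respiratory chain were smaller. Of 27 nuclear-encoded subunits 10 fell and 0 rose, a share of 37% called against 40.5% over all genes, with a median of -0.13. The largest called fall among those named was -0.35, in Atp5mc1, a subunit of the ATP synthase. With library totals alone 21 of the 27 fell, so this count depends on the scaling. Of the 13 mitochondrially encoded genes 1 was called, ND3 (-0.37), and that call was lost without experiment C (-0.14). The mitochondrially encoded share of counts was 2.25 ± 0.228% in control and 2.11 ± 0.204% in NTHi libraries (SD, n = 7 each, exact two-sided permutation test within experiments, p = 0.16). Without NTHi replicate 1 of experiment A the same exact test gave p = 0.0306.

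Lipid synthesis was divided. Of 24 sterol synthesis genes 17 rose and 3 fell, with a median of 0.40. The squalene epoxidase gene Sqle rose by 0.45 and the regulator Srebf2 by 0.40, while Dhcr7 fell by 0.62. Of 26 genes of fatty acid synthesis and lipid droplets 4 rose and 11 fell, and 2 rose without control replicate 1 of experiment B or control replicate 2 or 3 of experiment C. Besides Scd1, the lipid regulators Pparg and Lpin1 fell by 0.92 and 1.03, and Fabp4, a fatty acid carrier that alveolar macrophages also express, fell by 3.41. Acsl1, which activates fatty acids, rose by 0.66.

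**Figure D3:**
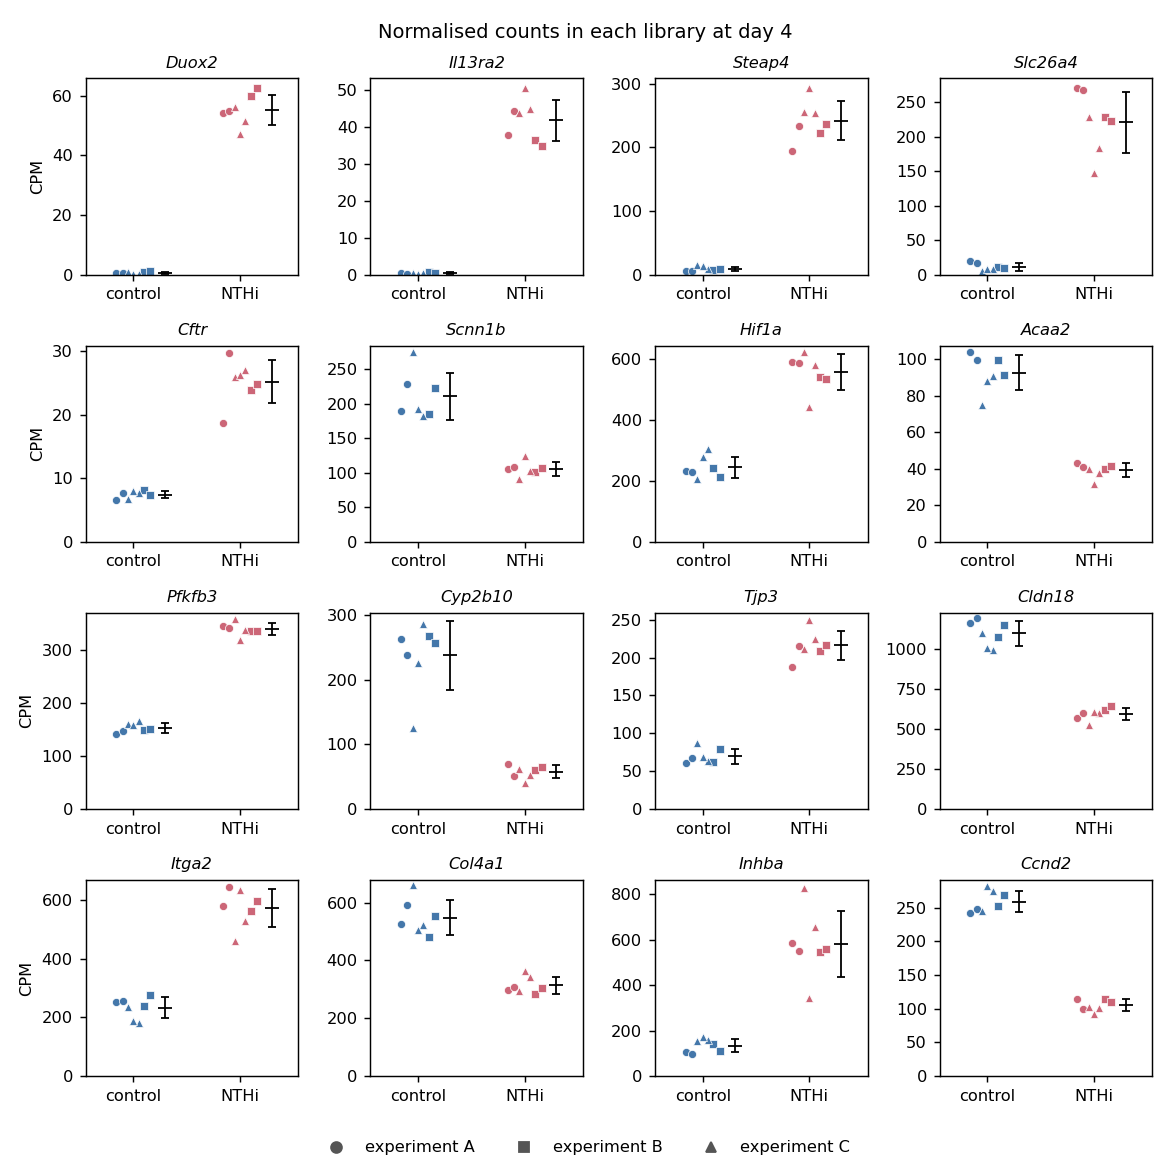
Normalised counts in CPM (y axis, from 0) of 16 genes of oxidant defence, metal and ion transport, metabolism, junctions, matrix and growth control in the 7 control and 7 NTHi libraries. Symbols show experiments A, B and C, and the bar to the right of each group is its mean with the SD. In each of the 16 panels all NTHi libraries lie on 1 side of all control libraries. The 16 genes were selected with their values in view, and 15.8% of all genes tested had groups without overlap.

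Genes of metal handling mostly rose. Of 23 tested, 13 rose and 4 fell, with a median of 0.30. Steap4, a metalloreductase for iron and copper, went from 5.43, 9.43 and 14.6 CPM in control to 195, 236 and 294 CPM with NTHi, a log2 change of 4.73 ± 0.13, with no overlap. Cp, the copper-carrying ferroxidase ceruloplasmin, rose by 2.44, the zinc importer Slc39a4 by 1.15 and the iron importer Slc11a2 by 1.03. The ferritin light chain Ftl1 fell by 0.60, a call lost without experiment A, and the heavy chain Fth1 was not called (0.26 ± 0.20, adjusted p = 0.35) except without the 2 libraries that stood apart (0.29).

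Genes that handle foreign compounds mostly fell. Of 26 genes of xenobiotic and aldehyde metabolism 19 fell and 3 rose, with a median of -0.69. Cyp2b10, a cytochrome P450 of club cells, went from 125, 257 and 286 CPM in control to 40.2, 60.9 and 70.2 CPM with NTHi, a log2 change of -2.05 ± 0.15, and every control library was higher than every NTHi library. The carboxylesterase Ces1d fell by 1.21, the flavin monooxygenase Fmo2 by 1.40, Cyp2s1 by 0.91 and the epoxide hydrolase Ephx1 by 0.62. The aldehyde dehydrogenase Aldh3a1 rose by 1.41 and the aldo-keto reductase Akr1b8 by 0.75. Cyp1b1 was not called (-0.00 ± 0.10, adjusted p = 0.99).

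Of 28 glutathione and antioxidant genes 16 fell and 5 rose. Gpx3, the secreted glutathione peroxidase, went from 14.8, 18 and 29.98 CPM in control to 68.2, 79.1 and 112 CPM with NTHi, a log2 change of 2.08 ± 0.07. Sod2, the mitochondrial superoxide dismutase, rose by 1.33. The falls took in Nqo1 (-1.18), Gss (-0.58), Gpx4 (-0.57) and Prdx6 (-0.37), while the regulator Nfe2l2 and its inhibitor Keap1 were not called (log2 differences -0.06 ± 0.05 and -0.09 ± 0.05, adjusted p = 0.37 and 0.2). With library totals alone Keap1 was called lower (-0.15). Gpx3 and Sod2 therefore went against the direction of most members of their list.

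Arginine and related pathways changed member by member, with 9 of 20 higher and 6 lower. Nos2, the inducible nitric oxide synthase, rose by 3.35 to a median of 12.7 CPM. Gch1, which starts synthesis of its cofactor tetrahydrobiopterin, rose by 1.09, Ass1, which regenerates arginine, by 0.81, and the arginase Arg2 by 1.27. The other arginase, Arg1, was not called (0.11 ± 0.18, adjusted p = 0.65), although it was called higher without experiment C (0.37). In polyamine metabolism the catabolic enzymes Sat1 and Smox rose by 0.78 and 0.68, and the synthases Srm and Sms fell by 0.34 and 0.49. Of 24 genes of amino acid transport and Atf4 targets 7 rose and 9 fell (5 and 13 with library totals alone, and 4 higher without any 1 of 8 libraries), with the serine synthesis enzymes Phgdh and Psat1 lower by 0.62 and 0.66.

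Few ribosomal protein genes were called. Of 33 cytosolic ribosomal protein genes 2 were called, both higher, with a list median of 0.027, and the named ones were Rpl7 (0.24) and Rplp0 (0.21, not called without experiment C). Of 24 unfolded protein response genes 7 rose and 3 fell (3 and 6 with library totals alone), a share of 41.7% called against 40.5% over all genes, and the chaperone Hspa5 was not called (0.05 ± 0.04, adjusted p = 0.41). Creb3l1, a membrane-bound transcription factor released by proteolysis in the Golgi, had the largest change of that list. It went from 12.9, 14.5 and 17.1 CPM in control to 68.3, 84.6 and 98.6 CPM with NTHi, a log2 change of 2.55 ± 0.08, with no overlap.

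Of 18 cytosolic chaperone genes 10 fell and 0 rose. The small heat shock proteins Cryab, Hspb8 and Hspb1 fell by 1.22, 0.90 and 0.74, and their regulator Hsf1 was not called (0.02 ± 0.04, adjusted p = 0.65). Of 20 proteasome and ubiquitin genes 6 rose and 0 fell (2 and 3 with library totals alone), a share of 30% called against 40.5% over all genes. The largest rise was that of the ubiquitin-like modifier Ubd (1.46). Of 27 lysosome and autophagy genes 12 fell and 3 rose, among them the protease Ctss (-1.13) and the sterol carrier Npc2 (-0.51). The macrophage markers fell in the same libraries, and their part in the lysosomal count was not tested.

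Genes of the tight junctions, which seal the layer, moved in both directions. Of 20 tight junction genes 12 rose and 6 fell (8 and 6 with library totals alone), with a median of 0.22. Tjp3, the scaffold protein ZO-3, went from 61, 67.1 and 87.2 CPM in control to 187, 215 and 249.9 CPM with NTHi, a log2 change of 1.63 ± 0.08. Cldn18, a claudin of the alveolar epithelium, went from 997, 1105 and 1196 CPM in control to 526, 604 and 645 CPM with NTHi, a change of -0.88 ± 0.05. Neither overlapped between groups. Cldn4 and Cldn7 rose by 0.57 and 0.38, the adhesion receptor Cxadr by 0.61. Of 20 adherens junction and desmosome genes 4 rose and 4 fell (7 without NTHi replicate 3 of experiment C), a share of 40% called against 40.5% over all genes, with Cdh1, E-cadherin, higher by 0.41, Epcam by 0.33, and the desmosomal linker Ppl lower by 0.66.

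More integrin and laminin genes rose than fell, and more collagen and matrix genes fell than rose. Of 23 integrin, laminin and hemidesmosome genes 13 rose and 3 fell (9 and 3 with library totals alone, and 1 lower without any 1 of 6 libraries). Itga2, the alpha chain of a collagen receptor, went from 182, 238 and 277 CPM in control to 460.3, 581 and 646 CPM with NTHi, a log2 change of 1.30 ± 0.08, with no overlap. The chains Itgav, Itgb3, Itgb6 and Itgb8, which pair to bind vitronectin and latent TGF-beta, rose by 0.82, 0.97, 0.62 and 1.16. Of 24 collagen and matrix genes 11 fell and 4 rose. Col4a1, a chain of basement membrane collagen, went from 479.5, 527 and 659.8 CPM in control to 285, 305 and 365 CPM with NTHi, a change of -0.81 ± 0.07, and Col4a3, from the network typical of alveoli, went from 147, 169 and 246 CPM in control to 67.5, 81.6 and 108 CPM with NTHi, a change of -1.11 ± 0.12. Both were lower in every NTHi library. The crosslinking enzymes Lox and Loxl2 and the hyaluronan synthase Has2 rose by 0.85, 0.66 and 0.88.

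Of 26 matrix proteases and inhibitors 17 rose and 5 fell, with a median of 0.57. Mmp13, a collagenase, went from 6.47, 8.60 and 15.5 CPM in control to 32.9, 50.5 and 61.8 CPM with NTHi, a log2 change of 2.36 ± 0.17. Every NTHi library exceeded every control library. The plasminogen activator Plat rose by 1.28, the protease Adamts1 by 1.65, the epithelial protease St14 by 0.77 and the inhibitor Timp1 by 1.04. The serine proteases Tmprss2 and Prss8 fell by 0.72 and 0.53, and the inhibitor Timp3 by 0.76.

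Genes of ion and fluid transport moved in both directions. Of 25 tested, 12 rose and 9 fell. Slc26a4, the anion exchanger pendrin, went from 5.80, 9.04 and 19.9 CPM in control to 147, 229 and 272 CPM with NTHi, a log2 change of 4.39 ± 0.14. Cftr, the apical chloride and bicarbonate channel, went from 6.54, 7.64 and 8.19 CPM in control to 18.7, 26 and 29.7 CPM with NTHi, a change of 1.76 ± 0.09. Scnn1b, a subunit of the epithelial sodium channel, went from 182, 193 and 275 CPM in control to 91.1, 105 and 125 CPM with NTHi, a change of -0.995 ± 0.09. Groups did not overlap in any of the 3, with Slc26a4 and Cftr higher and Scnn1b lower with NTHi. Clic5, of the chloride intracellular channel family, fell by 1.11. The sodium-glucose cotransporter Slc5a1 rose by 1.79 and the anion transporter Slc26a9 by 0.55, and the water channels Aqp5 and Aqp3 fell by 1.67 and 1.32.

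Of 23 prostaglandin and leukotriene genes 5 rose and 10 fell. Ptges, which makes prostaglandin E2, went from 121, 149 and 168 CPM in control to 393, 453 and 526 CPM with NTHi, a log2 change of 1.67 ± 0.07, and Ptgs2, the inducible cyclooxygenase ahead of it, rose by 1.11. Alox5ap, the activating protein of the leukotriene pathway, went from 25.5, 46.1 and 57 CPM in control to 3.74, 11.4 and 15.1 CPM with NTHi, a change of -2.03 ± 0.24, and the leukotriene C4 synthase Ltc4s fell by 3.24. Ptgr1, a prostaglandin reductase, fell by 0.82. Ptges and Ptgs2 were thus higher, and Ptgr1 and these leukotriene genes, which leukocytes also express, lower. Among genes of G-protein signalling and adhesion receptors, 10 of 28 rose and 9 fell. Rgs16, which shortens G-protein signals, went from 11.7, 13.9 and 19.4 CPM in control to 133, 147 and 164 CPM with NTHi, a change of 3.29 ± 0.07, with no overlap. The adhesion molecules Vcam1, Icam1 and Cd44 rose by 1.66, 0.69 and 0.77.

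**Figure D4:**
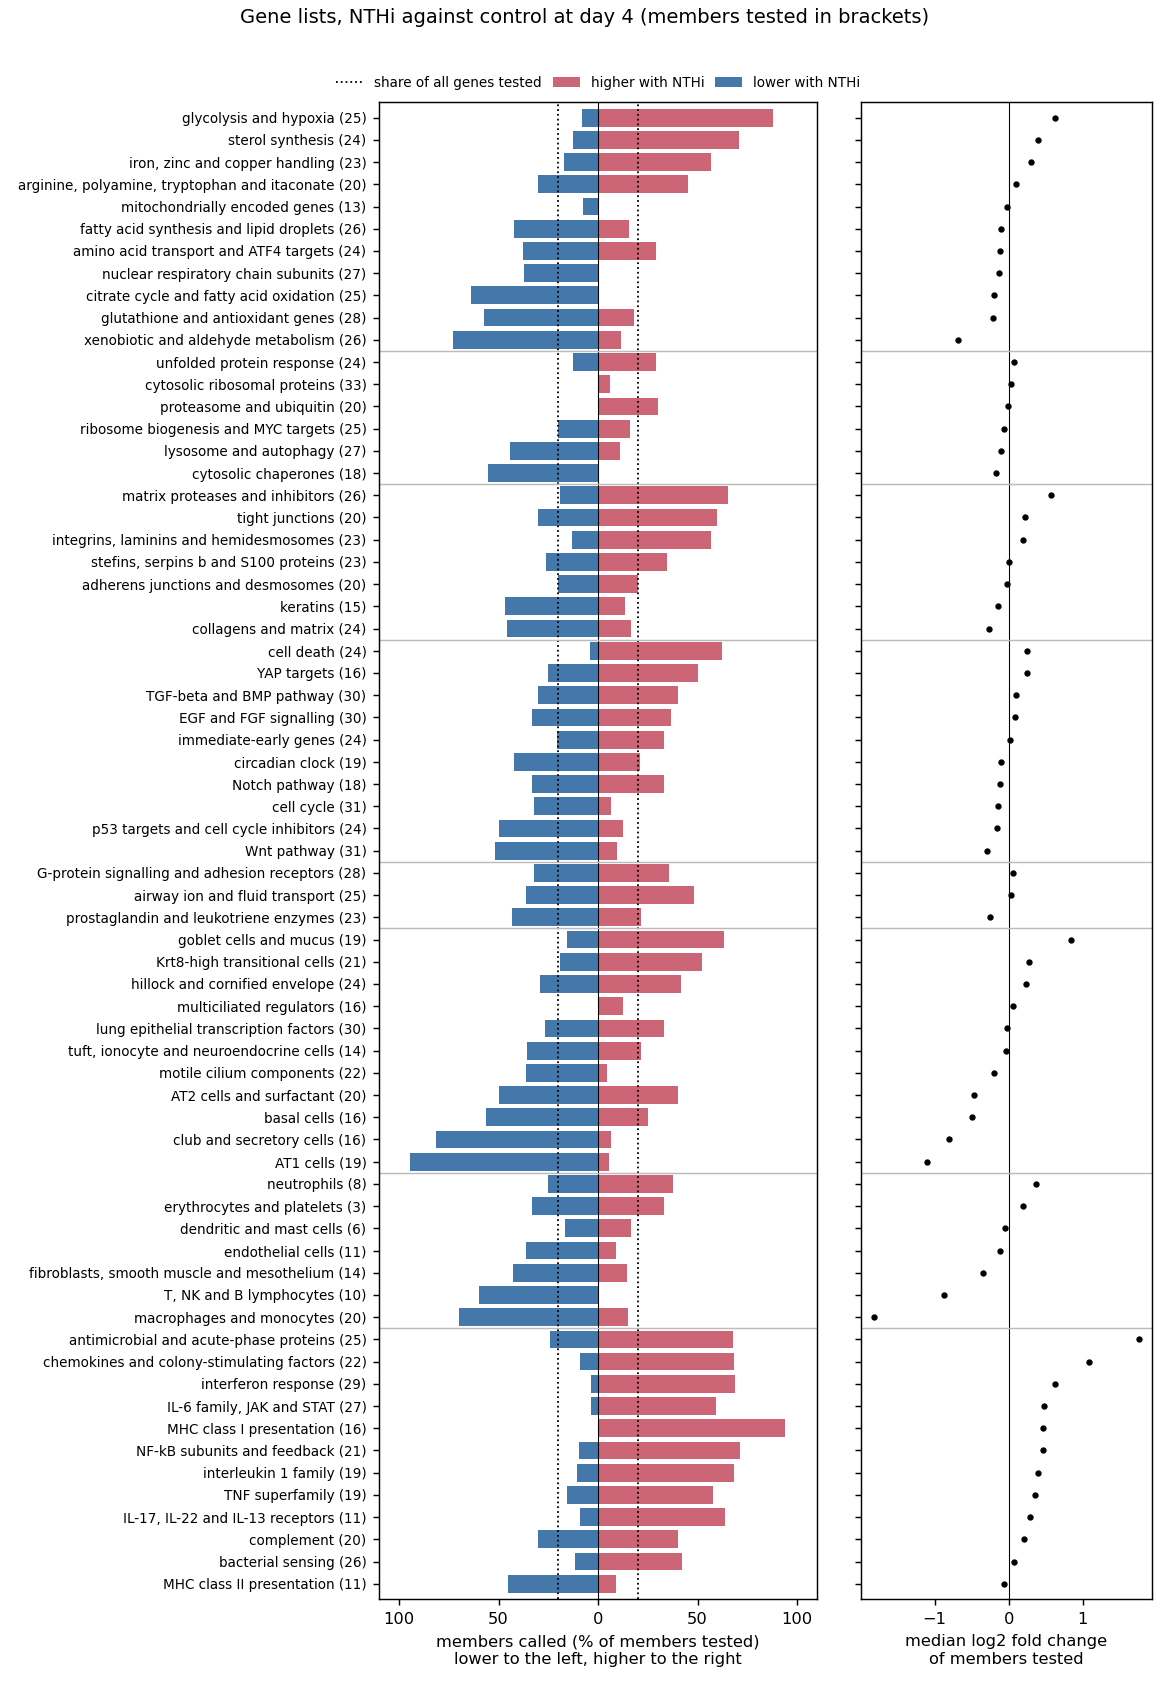
The left panel gives, for each of the 67 gene lists, the share of its tested members called higher (right) or lower (left) with NTHi, with dotted lines at the shares over all genes tested (20.1% and 20.4%); the right panel gives the median log2 fold change of the members. Lists are grouped by theme. Glycolysis, sterol synthesis, matrix proteases and goblet cell genes lean to the right, and xenobiotic metabolism, the Wnt pathway, AT1 cells and macrophages lean to the left.

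Cell type programmes of the epithelium did not move together. Of 16 regulators of multiciliated cells 2 were called (12.5%), both by less than 0.2 on the log2 scale, 1 without the 2 libraries that stood apart and 0 with library totals alone. Of the called pair, E2f4 (0.10) lost its call in 21 of 26 alternatives, and Foxj1 was at 0.01 ± 0.08 (adjusted p = 0.95). Of 22 motile cilium components 8 fell and 1 rose, a share of 40.9% called against 40.5% over all genes. The dynein chain Dnah11 fell (-0.42), and the chain Dnah5 was not called (-0.21) except without NTHi replicate 2 of experiment A (-0.31). The number of falls ran from 3 to 11 over the alternatives, and was 5 without NTHi replicate 2 of experiment C. Of 16 club and secretory cell genes 13 fell and 1 rose, of 19 AT1 genes 18 fell and 1 rose, and of 20 AT2 genes 10 fell and 8 rose. In the club cell list Sec14l3 fell by 1.74, Bpifa1, a secreted antimicrobial surfactant-like protein, by 1.43 and Cbr2 by 1.11. In the AT2 list Sftpb fell by 3.14 while Sftpd rose by 1.11 and the phosphate transporter Slc34a2 by 0.98.

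Of 19 goblet cell and mucus genes 12 rose and 3 fell, with a median of 0.83. Of the gel-forming mucins, Muc5b was at 0.27 ± 0.20 (adjusted p = 0.32) and was called only without experiment C (0.67), Muc5ac rose by 1.05 to a median of 7.74 CPM, and Agr2, a protein needed to fold mucins, fell by 2.03. The membrane mucins Muc1 and Muc20 rose by 0.92 and 1.24, and the glycosylation enzymes St3gal1 and Galnt3 by 1.02 and 0.61. The members that rose thus included membrane mucins and glycan enzymes as well as the gel-forming Muc5ac.

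Of 16 basal cell genes 9 fell and 4 rose, a number that was 2 when control replicate 1 or NTHi replicate 2 of experiment B, or control replicate 2 or 3 of experiment C, was left out. Krt5, the basal keratin, went from 40.9, 109 and 174 CPM in control to 16.5, 35.2 and 54.6 CPM with NTHi, a log2 change of -1.63 ± 0.14, with overlapping groups, and the basal regulator Trp63 fell by 0.59. The basal genes that rose included Pdpn (1.59), also an AT1 marker, Icam1 (0.69) and Lamb3 (0.25, a call lost in 7 of 26 alternatives). Krt14 was not called (-0.41), but was called lower in 7 of 26 alternatives. The summed level of the basal genes was 2694 to 3556 CPM in control (median 2813). With NTHi it was 3077 to 3727 CPM (median 3320). The 24 hillock and cornified envelope genes were split, with 10 higher and 7 lower. Krt4, a keratin of hillock cells, went from 4.70, 13.8 and 26.1 CPM in control to 1.12, 2.17 and 3.24 CPM with NTHi, a change of -2.52 ± 0.22. Krt13, its partner, fell by 1.57 and involucrin, Ivl, by 1.59, while the transglutaminase Tgm1 rose by 0.57 and Krt6a by 0.71. Keratin Krt18 fell by 0.19, and its partner Krt8 was not called (-0.13 ± 0.05, adjusted p = 0.065). Krt8 was called lower in 5 of 26 alternatives. Among these were the DESeq2 Wald test (-0.13), limma-voom (-0.12) and the fit without control replicate 3 of experiment C (-0.16).

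Of 30 lung epithelial transcription factors 10 rose and 8 fell. Cebpd, a factor of the acute-phase response, went from 27.3, 34.7 and 36.6 CPM in control to 123, 131 and 150.5 CPM with NTHi, a log2 change of 2.01 ± 0.07. Ehf, an epithelial factor of the ETS family, went from 127, 139 and 179 CPM in control to 314, 349.7 and 363 CPM with NTHi, a change of 1.23 ± 0.06. Both were higher in every NTHi library. Its relative Elf3 rose by 0.89 and Foxa1 by 0.57, while Etv5, which maintains AT2 cells, fell by 1.26. The lineage factors Nkx2-1 and Foxa2 were not called (-0.12 ± 0.07 and -0.08 ± 0.05, adjusted p = 0.17 and 0.27), although Nkx2-1 was called lower without experiment C (-0.22).

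Of the signalling pathways that pattern the lung, the Wnt list had more falls than rises. Of 31 Wnt genes 16 fell and 3 rose, with a median of -0.29. Wnt3a went from 6.07, 6.39 and 9.36 CPM in control to 0.367, 0.559 and 0.973 CPM with NTHi, a log2 change of -3.51 ± 0.18. The ligands Wnt4, Wnt9a and Wnt11 fell by 0.82, 0.65 and 0.54, and Nkd1, a feedback target of the pathway, by 1.03. Wnt7b, an epithelial ligand, and the receptor Fzd1 rose by 0.58 and 0.51, and Wnt5a was not called (0.02 ± 0.06, adjusted p = 0.85).

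Of 30 genes of the TGF-beta and BMP pathways 12 rose and 9 fell (8 and 9 with library totals alone). Inhba, the activin A subunit, went from 97, 140.3 and 171 CPM in control to 345, 558 and 828 CPM with NTHi, a log2 change of 2.14 ± 0.15. The type I receptor Tgfbr1 went from 114, 129.9 and 141 CPM in control to 269, 341 and 363 CPM with NTHi, a change of 1.35 ± 0.05. Smad9, a mediator of BMP signals, went from 1.65, 3.90 and 6.73 CPM in control to 0.419, 0.632 and 0.769 CPM with NTHi, a change of -2.64 ± 0.24. These 3 did not overlap between groups, with the activin ligand and the TGF-beta receptor higher and the BMP mediator lower. Bmp4 fell by 1.34, the type II receptor Tgfbr2 by 0.48, and the BMP target Id1 rose by 0.88.

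Of 18 Notch genes 6 rose and 6 fell (5 and 9 with library totals alone), with the ligands Dll4 and Jag1 higher by 1.33 and 0.36 and the receptor Notch3 and the targets Nrarp and Hes1 lower by 0.73, 0.65 and 0.37. Of 30 EGF and FGF genes 11 rose and 10 fell, with Egfr and Met higher by 0.71 and 0.70 and Fgf1 lower by 1.20. Of 16 YAP targets and partners 8 rose and 4 fell (5 each with library totals alone), among them Ankrd1 and Amotl2, higher by 1.0 and 0.86.

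Cell cycle genes fell in part. Of 31 tested, 10 fell and 2 rose, a share of 38.7% called against 40.5% over all genes, and without the 2 libraries that stood apart 15 fell and 3 rose. Ccnd2, cyclin D2, went from 243, 252 and 282 CPM in control to 92.3, 103 and 115 CPM with NTHi, a log2 change of -1.30 ± 0.05, with no overlap. The proliferation marker Mki67 fell by 0.38, Cdk6 by 0.33, and Top2a was not called (-0.08 ± 0.08, adjusted p = 0.51). Of 24 p53 targets and cell cycle inhibitors 12 fell and 3 rose, with Cdkn1a, which encodes p21, lower by 0.32 and Cdkn2a by 1.10.

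Of 24 cell death genes 15 rose and 1 fell. Zbp1, a sensor of nucleic acids that can start necroptosis, went from 5.52, 7.21 and 8.65 CPM in control to 20.6, 27 and 31.7 CPM with NTHi, a log2 change of 1.91 ± 0.12, and its groups did not overlap. The inflammatory caspase Casp4 rose by 0.84, its substrate Gsdmd by 0.56, the proapoptotic genes Bcl2l11 and Bid by 0.60 and 0.49, and the survival genes Birc3 and Bcl2l1 by 1.46 and 0.32. The 1 fall was that of the survival gene Mcl1 (-0.14, not called without experiment C), so members with opposite known roles rose together. Of 19 circadian clock genes 8 fell and 4 rose, among them Npas2 (0.65), Bmal1 (0.31), Nr1d1 (-0.36) and Tef (-0.50).

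Each immune list described here held members that rose and members that fell. The immune lists not taken up further had mostly rises. Of 16 MHC class I genes 15 rose and 0 fell, and of 29 interferon response genes 20 rose and 1 fell. Of 21 NF-kB genes 15 rose and 2 fell. Of 22 chemokines and colony-stimulating factors 15 rose and 2 fell, and of 25 antimicrobial and acute-phase genes 17 rose and 6 fell. Of 26 bacterial sensing genes 11 rose and 3 fell: the endotoxin co-receptor Cd14 rose by 3.0 and the endotoxin carrier Lbp by 2.08, while the flagellin receptor Tlr5 fell by 0.55 and Tlr2, which senses lipoproteins, was not called (-0.40 ± 0.20, adjusted p = 0.12) unless the 2 libraries that stood apart were left out (-0.34). The number that fell ran from 1 to 6 over the alternatives, and each of 7 single libraries moved it when left out. Of 19 genes of the interleukin 1 family 13 rose and 2 fell, with Il1a and Il1b higher by 1.88 and 2.24, the antagonist Il1rn by 1.13, and Il18 lower by 2.50. Of 19 TNF superfamily genes 11 rose and 3 fell, with the ligand Tnfsf10, or TRAIL, at 2.77 and its decoy receptor Tnfrsf11b at 2.65.

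Of 27 genes of the IL-6 family, JAK and STAT 16 rose and 1 fell (0 in some alternatives). The rises included Il6 (2.33), the oncostatin M receptor Osmr (1.54) and the feedback inhibitor Socs3 (1.04). Among 11 receptors and ligands of IL-17, IL-22 and IL-13, 7 rose and 1 fell, with Il22ra1 at 2.01 and the signalling receptor Il17ra not called (-0.04 ± 0.09, adjusted p = 0.73). Of 20 complement genes 8 rose and 6 fell: the proteases C1s1 and C1ra rose by 3.13 and 1.74, the receptor C5ar1 fell by 1.65, and Hc, which encodes C5, fell by 3.35. Of 11 MHC class II genes 5 fell and 1 rose, all by less than 1.2 on the log2 scale, and Cd74 rose by 0.23.

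Most called genes, 5777 of 6619, were in none of the 67 lists. The 12 with the smallest p among them, gene models aside, follow. Mab21l3 went from 2.05, 2.52 and 2.94 CPM in control to 57.3, 63.4 and 65.8 CPM with NTHi, a log2 change of 4.65 ± 0.07. H6pd, the hexose-6-phosphate dehydrogenase of the endoplasmic reticulum, went from 145, 164 and 193 CPM in control to 620.3, 676 and 729 CPM with NTHi, a change of 2.03 ± 0.05. Fndc4, a secreted fibronectin domain protein, went from 10.5, 12.6 and 13.6 CPM in control to 69.4, 72.8 and 77.6 CPM with NTHi, a change of 2.56 ± 0.06. None of the 3 overlapped between groups.

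Slc28a3, a nucleoside transporter, went from 4.30, 5.54 and 6.32 CPM in control to 34.7, 39.8 and 44.4 CPM with NTHi, a log2 change of 2.86 ± 0.08. Cd177, a surface protein best known from neutrophils, went from 5.03, 8.88 and 14.7 CPM in control to 68.1, 95.7 and 193 CPM with NTHi, a change of 3.77 ± 0.11. Exoc3l4, a relative of an exocyst subunit, went from 2.98, 3.22 and 3.36 CPM in control to 15.5, 17.5 and 20.5 CPM with NTHi, a change of 2.45 ± 0.07. All were higher in every NTHi library. Vnn1, a pantetheinase like Vnn3, rose by 2.44, and Ly6i, of a family with close copies, by 3.85. Snx22, a sorting nexin, went from 12.5, 15.9 and 18.8 CPM in control to 1.86, 2.49 and 3.03 CPM with NTHi, a change of -2.72 ± 0.07, and together with Ndnf was lower, while the other 10 of these 12 were higher.

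The 3 experiments, which do not share libraries, were also fitted alone. Experiment A called 3389 genes, B 3067 and C 2617, with 2, 2 and 3 libraries a group. Across the 16337 genes, which are not independent, log2 changes had a Pearson r of 0.837 between A and B, 0.836 between A and C and 0.857 between B and C. A test of the difference between experiments called 0 genes in edgeR (675 at an unadjusted p below 0.05) and 5 genes in DESeq2's likelihood ratio test. The 5 were Pigr, Reg3g, Acaa1b, Abhd17a and Romo1, named after their values were seen. Pigr, the receptor that carries immunoglobulin A to the apical surface, rose by 3.79, 3.40 and 2.93 in A, B and C, and the peroxisomal thiolase Acaa1b changed by -4.24, -3.19 and -2.23. Reg3g, an antibacterial lectin, differed by 1.39, 0.34 and -0.26 and was not called over the 3 experiments (adjusted p = 0.21).

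The number of genes with at least 1 CPM, here on library totals without TMM scaling, was 13929 ± 80.6 in control and 13742 ± 41.2 in NTHi libraries (SD, n = 7 each). The exact two-sided permutation test within experiments gave p = 0.0028, the smallest that its 720 regroupings can give. This number was not taken on TMM-scaled totals. The 100 most counted genes took 22.2 ± 0.617% of counts in control and 22.9 ± 0.502% in NTHi libraries (SD, n = 7 each, exact permutation test, p = 0.061). On library totals NTHi cultures thus had slightly fewer genes with at least 1 CPM, while the share of the most counted genes did not pass the test. That exact test gave p = 0.0194 without NTHi replicate 2 of experiment A, 0.0333 without control replicate 1 of B and 0.0472 without control replicate 2 of C.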

How the data were processed

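The authors deposited raw read counts per gene, as whole numbers without normalisation, in 1 table per experiment. Per the submitters' processing notes, which give no versions, STAR and DESeq2 were used with the mouse build GRCm39. Which tool counted reads, with which use of strand, is not given in the sources used here. Broken lines, 25 of each file, were dropped with the 6 genes they hold (Huwe1, Mycbp2, Syne1, Ttn, Neb and Dst), leaving 41073 genes. Among counts below 20, 71.6% to 74.9% were even, so counts may hold both reads of a pair. The number of columns not used because they match no sample was 0.

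The 14 day 4 libraries were analysed with edgeR 4.0.16 in R 4.3.3: filterByExpr with a minimum count of 10, TMM scaling (factors 0.952 to 1.06), and a quasi-likelihood F-test with experiment and group as terms, Benjamini-Hochberg adjusted. Standard errors are the absolute log2 fold change over the root of F. CPM use TMM-scaled totals, except in the number of genes with at least 1 CPM, which uses library totals alone. Replicate pairs within an experiment all differed by more than sampling noise (chi-square per degree of freedom 6.91 to 86.3). The model was also run on simulated counts with no experiment effect and few changed genes. That run differs from these data in both, so it is no check on the scaling or on the share of genes called here. The 67 gene lists, and the groups compared, were chosen with earlier results of these data known. Genes named are the 12 highest and 12 lowest changes at 10 CPM or more with 1 sign in each experiment, the 12 largest gains and losses in CPM, the first 3 members of each list with up to 6 of smallest p and 3 of the rarer direction, 15 fixed genes, and the 12 genes of smallest p in no list. The selection from these for print was made with the values in view, and some genes that the rule names are not reported here. Alternatives used DESeq2 1.42.0, limma 3.58.1, other scalings and filters, and left out experiments or single libraries.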

Additional observations from a re-analysis of the deposited data

Results flagged for a closer look

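Among the 58 genes printed with library values and 3 library-level values, 122 groups of 7 libraries were checked for a library far from the others, and 5 were found, fewer than the 1 in 20 that chance gives. In control cultures, replicate 1 of experiment B was the highest for Cstdc4, at 0.566 CPM with the next library at 0.211, and for Csta2, at 1.03 CPM with the next at 0.552. Control replicate 1 of experiment C, which also stood apart on the second principal component, was the lowest for Cyp2b10, at 125 CPM with the next at 226, and for Cebpd, at 27.3 CPM with the next at 32.6. It was the highest for Wnt3a, at 9.36 CPM with the next at 6.90. In none of the 5 genes did the library reach the range of the NTHi group.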

How the results depend on the processing

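The count of 6619 called genes stayed within 1.5 times its value in every alternative run, from 4925 without experiment B to 7053 with limma-voom and sample weights. Leaving out single libraries gave 6069 to 6702. With libraries paired by replicate number (a replicate block), 5982 genes were called, and 499 rather than 542 for a change over 2-fold; deviations of same-numbered libraries correlated at 0.09 in A, 0.128 in B and -0.492, 0.133 and -0.302 in C, so the numbers were not taken to pair libraries. A minimum log2 fold change of 2 called 132 genes. DESeq2's likelihood ratio test called 5 genes for a difference between experiments. The group difference in the mitochondrially encoded share ranged from -0.203 to -0.0894 percentage points and in the share of the 100 most counted genes from 0.530 to 0.850 when single libraries were left out, and some of these passed the test. Of 570 named genes tested, 471 kept their call in each alternative, 74 lost it in at least 1, 25 gained one and 0 reversed. Without experiment A the falls numbered 10 for Wnt, 7 for p53 and 7 for lysosomal genes; without B 6 for chaperones; without A or B 6 for cell cycle; without C 8 integrin and laminin genes rose. The cause was not tested. Depth limits the genes below the count minimum, which were not tested.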
